A study of Mus musculus with 6 samples.

Results

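The genes described here make, sense and move cholesterol and fatty acids. They are 41 listed genes of sterol and fatty acid synthesis and of their control by sterol regulatory element binding proteins (SREBPs), listed by role and name. Each was read from the array feature that carried its symbol alone, or from the brightest such feature over the arrays, which gave 38 genes out of 22180 tested. Soat1, Nr1h2 and Scd2 were not analysed, and the feature for Scd2 also carried a second symbol. The 38 comprised 16 enzymes of the mevalonate and sterol pathways, 5 genes of SREBP control, 7 of sterol transport and its nuclear receptors, and 10 of fatty acid synthesis.

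Expression was measured on Affymetrix whole-transcript microarrays in 6 mouse medulloblastomas, tumours of the cerebellum. The 3 knockout tumours (Math1CreERT2CrebbpSmoM2, genotype Math1Cre::CrebbpFl/FlSmoM2Fl/+) had lost Crebbp, which encodes a histone acetyltransferase, and the 3 wild type tumours (Math1CreERT2SmoM2, genotype Math1Cre::SmoM2Fl/+) kept it. All 6 carried SmoM2, a constitutively active Smoothened that drives Sonic hedgehog signalling, switched on like the Crebbp deletion by a tamoxifen-dependent Cre under Math1 (Atoh1) control in granule neuron progenitors, so other cells of the tumours were not targeted. Tamoxifen (1 mg) was injected on postnatal day 5 and tumour tissue was taken on postnatal day 60, although the age label reads day 5. The labels do not say that tumours of a group came from separate litters, and p-values therefore measure the spread between these samples only.

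Cells sense sterols in the endoplasmic reticulum. When sterols are scarce, the escort protein Scap carries SREBPs to the Golgi, where they are cut and released to switch on enzyme genes, and when sterols are plentiful the Insig proteins hold Scap back. Srebf2 mainly drives cholesterol synthesis and Srebf1 mainly fatty acid synthesis, while liver X receptors (LXRs) answer to oxidised sterols, raise export through Abca1 and Abcg1 and induce Srebf1. In the brain cholesterol is made locally, largely by glia, and in the Sonic hedgehog pathway sterols bind Smoothened and cholesterol is attached to the ligand itself.

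All values are log2 expression, and all changes are knockout minus wild type. Crebbp had log2 levels of 11.24, 11.34 and 11.20 in knockout tumours and 11.80, 11.76 and 11.70 in wild type tumours, a change of -0.50 (SE 0.09, limma adjusted p = 0.0948). Which exons were removed is not stated, and probes of its feature may lie outside them. Knockout arrays carried the female and wild type arrays the male pattern of the sex-linked genes Xist, Kdm5d, Eif2s3y and Uty, with 9.32 or more where present and 5.74 or less where absent. Genotype and sex therefore cannot be told apart in any comparison below. All 14 markers of granule progenitors and Sonic hedgehog tumours lay above 5.74 in every array, as did all 38 lipid genes, whose lowest value was 6.77. Across genes the arrays correlated at 0.984 or more.

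No lipid gene passed the threshold. Of the 38, 0 had a limma adjusted p under 0.05, a threshold that 0.207% of all genes passed. With unadjusted p under 0.05 there were 8 higher and 4 lower lipid genes in knockout tumours, where 7.24% and 6.51% of all genes qualified. The groups did not overlap for 8 higher genes (21.1% of 38, against 10.2% of all genes) and 5 lower ones (13.2%, against 9.43%). In size the lipid genes resembled the rest, with a median absolute change of 0.13 against 0.12 over all genes and a median SD within groups of 0.14 in both. With 3 arrays against 3 the smallest exact permutation p is 0.10.

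**Figure D1:**
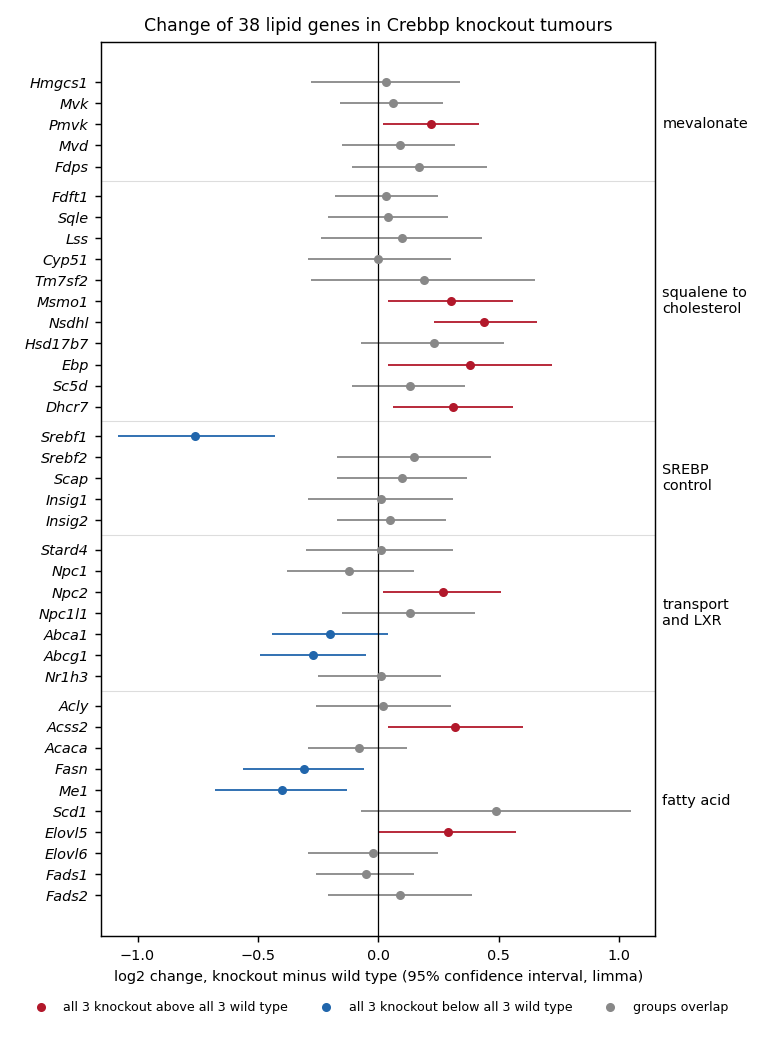
Log2 change (knockout minus wild type, x axis) of the 38 lipid genes with 95% confidence intervals from limma, grouped by role. Red and blue mark the 8 genes with all knockout values above and the 5 with all knockout values below those of wild type tumours. Srebf1 lies farthest from 0, at -0.76.

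Srebf1, the master regulator of fatty acid synthesis genes, had the largest difference of the 38. It had log2 levels of 9.86, 9.79 and 9.38 in knockout tumours and 10.36, 10.56 and 10.39 in wild type tumours. Every knockout tumour thus lay below every wild type tumour, by at least 0.50. The change was -0.76 (SE 0.14, 95% interval -1.08 to -0.43), a knockout level 1.69-fold lower, and it did not pass after adjustment over all genes (limma adjusted p = 0.111). Knockout replicate 3 was the lowest of the 6, and without it the change was -0.61.

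For the remaining genes of SREBP control the groups overlapped. Srebf2, the paralogue that drives cholesterol synthesis, had 10.26, 10.27 and 10.21 in knockout tumours and 10.38, 10.09 and 9.84 in wild type tumours (change 0.15, SE 0.14). The wild type tumours lay on both sides of the knockout ones. The difference between both genes within an array, Srebf1 minus Srebf2, was -0.39, -0.48 and -0.83 in knockout tumours and -0.01, 0.47 and 0.55 in wild type tumours. The groups did not overlap, which by itself fixes the exact two-sided permutation p at 0.10, the smallest possible. This contrast was not planned, and Srebf1 alone already had separated groups. Scap, the sterol-sensing escort, had a change of 0.10 (SE 0.12). Its second, dimmer feature gave 5.88, 5.93 and 5.97 in knockout and 6.17, 6.32 and 6.13 in wild type tumours, a change of -0.28, so the features of Scap disagreed in sign. The sterol-dependent brakes Insig1 and Insig2 had changes of 0.01 (95% interval -0.29 to 0.31) and 0.05 (-0.17 to 0.28). Insig1 is itself among the genes that SREBPs induce most readily. The median of the 5 genes was 0.05, against 0.004 over all genes.

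Upstream sequence was examined for the letters that SREBPs and their partner NF-Y are known to bind. The 250 bases before each annotated start came from a table of RefSeq sequences (build GRCm38.p6), in which 30 of the 38 genes were matched. The motifs were TCACNCCAC, a form of the sterol regulatory element, and CCAAT, the NF-Y box, both searched on both strands. All 13 mevalonate and sterol enzymes with a sequence held CCAAT before at least 1 start, against 38.7% of the 16990 tested genes with a sequence. So did 4 of 5 genes of SREBP control, 2 of 4 of transport and 4 of 8 of fatty acid synthesis, and 30 of 50 other sterol and fatty acid genes. The element TCACNCCAC was present only before Hmgcs1 among the 30, and before 1.22% of tested genes. Other forms of the sterol regulatory element were not searched, so genes without this match may still hold one. A match is a run of letters and not a measured binding site.

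The sequences shown are those of Srebf1 at the most downstream of its 3 annotated starts, of its lipogenic target Fasn, of Hmgcs1, and of Msmo1 and Nsdhl, sterol enzymes with higher values in all knockout tumours. Each runs 5′ to 3′ toward the start, and capitals mark CCAAT (or ATTGG on the other strand) and the TCACNCCAC match.
Srebf1 (chr11:60210472-60210721, minus strand): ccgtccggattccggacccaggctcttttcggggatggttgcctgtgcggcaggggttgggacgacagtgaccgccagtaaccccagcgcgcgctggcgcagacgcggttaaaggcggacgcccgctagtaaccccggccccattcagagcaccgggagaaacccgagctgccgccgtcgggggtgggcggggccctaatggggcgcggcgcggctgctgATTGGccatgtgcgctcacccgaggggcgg
Fasn (chr11:120824548-120824797, minus strand): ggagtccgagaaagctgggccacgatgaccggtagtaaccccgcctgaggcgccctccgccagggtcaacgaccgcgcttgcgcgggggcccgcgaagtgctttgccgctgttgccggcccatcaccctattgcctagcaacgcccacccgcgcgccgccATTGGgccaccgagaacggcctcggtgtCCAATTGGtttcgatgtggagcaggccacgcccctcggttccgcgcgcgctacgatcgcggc
Hmgcs1 (chr13:119690101-119690350, plus strand): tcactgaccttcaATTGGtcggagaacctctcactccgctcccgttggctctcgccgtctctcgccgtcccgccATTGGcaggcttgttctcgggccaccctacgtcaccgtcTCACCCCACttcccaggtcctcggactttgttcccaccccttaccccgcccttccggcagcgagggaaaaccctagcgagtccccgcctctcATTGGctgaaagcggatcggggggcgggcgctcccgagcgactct
Msmo1 (chr8:64733579-64733828, minus strand): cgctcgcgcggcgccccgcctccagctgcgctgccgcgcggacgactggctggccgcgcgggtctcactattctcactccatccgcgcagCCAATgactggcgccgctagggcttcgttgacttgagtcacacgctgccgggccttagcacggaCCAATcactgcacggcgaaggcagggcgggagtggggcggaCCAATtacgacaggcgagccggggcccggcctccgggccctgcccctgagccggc
Nsdhl (chrX:72918271-72918520, plus strand): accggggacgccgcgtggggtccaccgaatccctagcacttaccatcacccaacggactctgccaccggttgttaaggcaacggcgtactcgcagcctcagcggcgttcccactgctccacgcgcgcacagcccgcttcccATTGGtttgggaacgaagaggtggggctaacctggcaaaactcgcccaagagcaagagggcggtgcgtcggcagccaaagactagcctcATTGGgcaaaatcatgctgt
Hmgcs1 held 3 CCAAT boxes and the element between them, Msmo1 and Fasn 3 boxes each, Nsdhl 2 and this Srebf1 start 1. In Fasn the boxes on opposite strands share letters. The array feature for Srebf1 does not separate its starts, so the start behind its lower signal is not known.

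**Figure D2:**
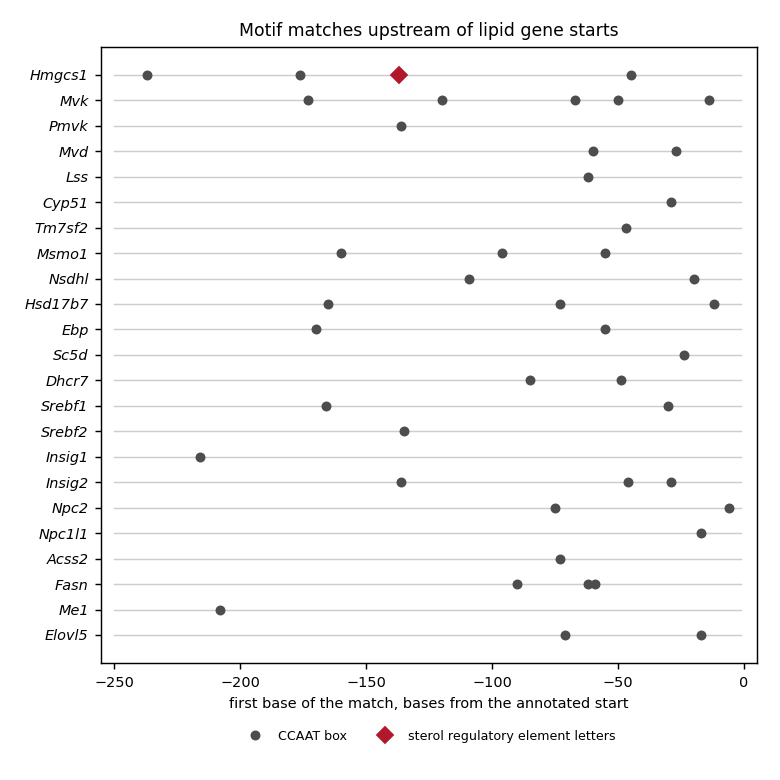
Position of CCAAT boxes (grey points) and of the TCACNCCAC element (red diamond) in the 250 bases before the starts of the 23 lipid genes that held either. The x axis gives the first base of each match in bases from the start, with matches of several starts of a gene on 1 line. Every mevalonate and sterol enzyme with a sequence has a box, and the element stands before Hmgcs1.

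Mean values of the sterol branch were higher in knockout tumours, most at its late steps, but no enzyme passed the threshold. The changes of the 16 enzymes were all positive, from 0.00 to 0.44 with a median of 0.15, where 50.9% of all genes were positive. In 5 of the 16 (31.2%, against 10.2% of all genes) the groups did not overlap, all higher in knockout tumours. The signs and the median rested in part on a single wild type tumour. Wild type replicate 3 held the lowest of its group for 12 of the 16 and wild type replicate 1 the highest for 15. Without wild type replicate 3 the median was 0.04, with 10 changes positive and 6 negative. Nsdhl and Ebp, with the largest changes of the branch, lie on the X chromosome. Without genes on X and Y the median of the 14 enzymes left was 0.11, with 14 changes positive.

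Of the mevalonate steps, which build the isoprenoid units, Pmvk differed most. Pmvk, phosphomevalonate kinase, had 9.10, 9.20 and 9.13 in knockout tumours and 8.98, 8.89 and 8.89 in wild type tumours, with a change of 0.22 (SE 0.09, limma adjusted p = 0.319). All knockout values were the higher ones, by a gap of 0.12. Hmgcs1, the synthase that feeds the pathway and a classic SREBP target, had 10.78, 10.90 and 10.97 in knockout tumours against 11.05, 10.94 and 10.58 in wild type tumours. The wild type values spanned those of the knockout, and the change was 0.03 (95% interval -0.28 to 0.34). Mevalonate kinase (Mvk), mevalonate diphosphate decarboxylase (Mvd) and farnesyl diphosphate synthase (Fdps) had changes of 0.06, 0.09 and 0.17, all with overlapping groups.

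The steps that close and first trim the sterol ring differed little. Squalene synthase (Fdft1), the squalene epoxidase Sqle, lanosterol synthase (Lss) and the lanosterol demethylase Cyp51 had changes of 0.03, 0.04, 0.10 and 0.00. Sqle, a rate-controlling step, had a 95% interval of -0.21 to 0.29, and Cyp51 one of -0.29 to 0.30. Both intervals reach up to about 0.3 on the log2 scale and are not adjusted over all genes. Their width is therefore not a limit of detection at the adjusted threshold. Changes of 0.44 in Nsdhl and -0.76 in Srebf1 did not pass that threshold. The smallest difference that could be seen in these genes was not tested. The reductase Tm7sf2 had 8.23, 8.49 and 8.45 in knockout tumours and 8.69, 8.04 and 7.89 in wild type tumours (change 0.19, SE 0.20), and wild type replicate 1 was the highest of all.

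Msmo1, Nsdhl and Hsd17b7 act together to strip methyl groups from the sterol ring. Nsdhl, the dehydrogenase of the trio, had the largest change of the sterol branch, with 9.77, 9.90 and 9.87 in knockout tumours and 9.50, 9.31 and 9.41 in wild type tumours. The groups were 0.28 apart, and the change was 0.44 (SE 0.09, 95% interval 0.23 to 0.66, limma adjusted p = 0.134). Msmo1, the oxygenase, had 8.95, 8.83 and 9.08 in knockout tumours and 8.79, 8.66 and 8.52 in wild type tumours. Its groups were separated by 0.04 only, with a change of 0.30 (SE 0.11, adjusted p = 0.3). Hsd17b7, the reductase, had overlapping groups and a change of 0.23 (SE 0.13).

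Ebp, Sc5d and Dhcr7 then shift, add and reduce double bonds of the ring. Ebp, the isomerase, had 9.86, 9.94 and 9.88 in knockout tumours and 9.71, 9.17 and 9.66 in wild type tumours (change 0.38, SE 0.15, limma adjusted p = 0.32). Wild type replicate 2 stood apart below the others, and without it the change was 0.21. Dhcr7, the terminal reductase whose loss causes Smith-Lemli-Opitz syndrome in humans, had 8.62, 8.53 and 8.59 in knockout tumours and 8.47, 8.18 and 8.16 in wild type tumours. Its change was 0.31 (SE 0.11, adjusted p = 0.287), and the groups were 0.06 apart. The desaturase Sc5d had a change of 0.13 (SE 0.10). Nsdhl and Ebp lie on the X chromosome, where 898 genes other than Xist had a median change of 0.029 and 12.2% had all knockout values above all wild type values. The part of sex in their higher values cannot be told apart from that of genotype.

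**Figure D3:**
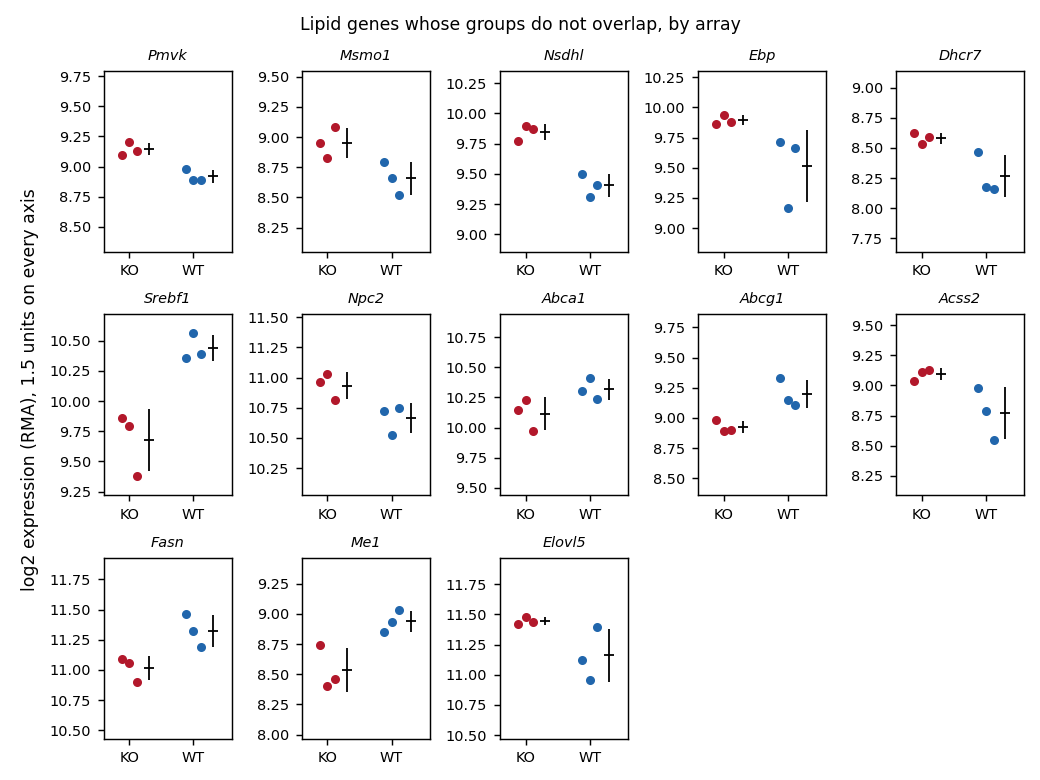
Log2 expression by array of the 13 lipid genes whose groups did not overlap, with knockout (KO, red) left of wild type (WT, blue). Points are replicates 1 to 3 from left to right, black bars the mean and SD (n = 3), and every y axis spans 1.5 log2 units. Srebf1 shows the widest gap, 0.50, and Abca1 the narrowest, 0.01.

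Among genes that move cholesterol, the LXR-induced exporters Abcg1 and Abca1 were lower in every knockout tumour. They were the 2 of the 7 transport genes with all knockout values lower (28.6%, against 9.43% of all genes), while 1 had all higher (14.3%, against 10.2%). Abcg1, which loads cholesterol onto lipoprotein particles, had 8.98, 8.89 and 8.90 in knockout tumours and 9.33, 9.15 and 9.11 in wild type tumours. The groups were 0.14 apart, with a change of -0.27 (SE 0.10, limma adjusted p = 0.285). Abca1, which passes cholesterol to lipid-poor apolipoproteins, had 10.15, 10.23 and 9.97 in knockout tumours and 10.30, 10.41 and 10.24 in wild type tumours. The gap was only 0.01 and the unadjusted p was 0.0882 (change -0.20, SE 0.10, limma adjusted p = 0.443). Nr1h3, which encodes the receptor LXR alpha, had a change of 0.01 (95% interval -0.25 to 0.26).

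The late endosomal pair that releases cholesterol from lysosomes differed in the sign of their changes. Npc2, the soluble carrier, had 10.96, 11.03 and 10.81 in knockout tumours and 10.72, 10.52 and 10.75 in wild type tumours, all knockout values being higher (change 0.27, SE 0.11, limma adjusted p = 0.324). Npc1, its membrane partner, had a change of -0.12 (SE 0.11) with overlapping groups. The sterol carrier Stard4, another SREBP target, had one of 0.01 (SE 0.13), and Npc1l1, the intestinal uptake protein, one of 0.13 (SE 0.12) at levels from 6.77 to 7.16. The median of the 7 transport genes was 0.01.

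Other genes known as LXR targets, gathered after their values were seen, had changes of both signs. Apoe, the main lipoprotein of the brain, had 9.03, 9.04 and 8.66 in knockout tumours and 9.18, 8.92 and 9.13 in wild type tumours (change -0.17, SE 0.13). Mylip, the ligase that degrades lipoprotein receptors, and Lpcat3, a phospholipid acyltransferase, had changes of 0.07 (SE 0.12) and 0.11 (SE 0.09). All knockout values of Lpcat3 were the higher ones, by a gap of 0.01, as small as that of Abca1 in the other direction. The groups of Apoe and Mylip overlapped. None of the 3 passed the threshold.

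Fatty acid genes split evenly, with 5 positive and 5 negative changes and a median of 0.00. Fasn and Me1 were lower in every knockout tumour. Of the 10 genes, 2 had all knockout values lower and 2 all higher (20% each, against 9.43% and 10.2% of all genes). Fasn, fatty acid synthase, had 11.09, 11.06 and 10.90 in knockout tumours and 11.46, 11.32 and 11.19 in wild type tumours. The groups were 0.11 apart, with a change of -0.31 (SE 0.11, limma adjusted p = 0.277). Me1, malic enzyme, which supplies reducing power for the synthase, had 8.74, 8.40 and 8.46 in knockout tumours against 8.85, 8.93 and 9.03 in wild type tumours. Its gap was also 0.11, and its change of -0.40 (SE 0.12, adjusted p = 0.215) was the largest negative one of the 10. The carboxylase Acaca and the citrate lyase Acly, which make the building blocks of the chain, had changes of -0.08 (SE 0.09) and 0.02 (SE 0.12).

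Genes that activate acetate, lengthen chains or add double bonds had changes from -0.05 to 0.32, Scd1 apart. Acss2, which turns acetate into acetyl-CoA, had 9.04, 9.11 and 9.13 in knockout tumours and 8.98, 8.79 and 8.55 in wild type tumours (change 0.32, SE 0.12, limma adjusted p = 0.313). The gap was 0.06, and without wild type replicate 3, the lowest array, the change was 0.21. Elovl5, an elongase of polyunsaturated chains, had 11.42, 11.48 and 11.44 in knockout tumours and 11.12, 10.96 and 11.40 in wild type tumours. The knockout values were tight and the wild type ones spread, for a change of 0.29 (SE 0.12, adjusted p = 0.353) that was 0.19 without wild type replicate 2. Elovl6, the elongase of saturated chains, had a change of -0.02 (SE 0.12), and the desaturases Fads1 and Fads2 had changes of -0.05 and 0.09.

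Scd1, the stearoyl-CoA desaturase that both SREBPs and LXRs induce, had the largest positive change of the 38 and the least even values. It had 8.86, 8.07 and 8.77 in knockout tumours and 8.36, 7.69 and 8.18 in wild type tumours. The groups overlapped, since knockout replicate 2 lay below wild type replicates 1 and 3, and the change of 0.49 had an SE of 0.24 (limma adjusted p = 0.42). Knockout replicate 2 was also the lowest knockout array for the list of 10 markers of mature granule neurons, with a median deviation of -0.34 beside 0.71 and 0.72 in knockout replicates 1 and 3. In wild type replicates 1 to 3 the same medians were -0.52, -0.36 and -0.16, so that the array with the lowest markers there had the highest Scd1. The part of these cells in the Scd1 values was not tested.

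**Figure D4:**
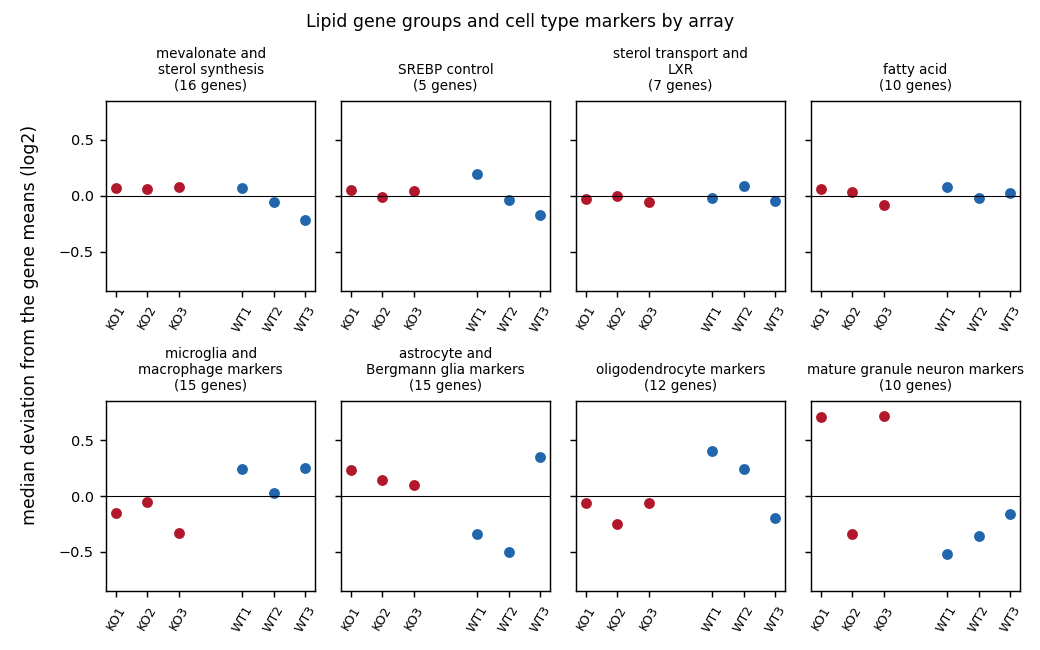
Median deviation of each gene group from its genes' means over 6 arrays (log2, y axis), by array, with knockout arrays (red) left of wild type arrays (blue). The sterol synthesis group lies between 0.06 and 0.08 in the knockout arrays and at 0.07, -0.06 and -0.22 in the wild type arrays. Microglial markers lie lower in every knockout array.

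Several marker lists of other cell types had median changes away from 0 as well, and in bulk tissue fewer cells of a type and less RNA per cell cannot be told apart. Of 15 microglial and macrophage markers 14 had negative changes, with summed linear levels of 9357 to 12074 in knockout and 12812 to 14594 in wild type tumours, and no marker below 6.86 on the log2 scale. Of 12 oligodendrocyte lineage markers 10 had negative changes, with summed levels of 8551 to 8783 in knockout and 9535 to 12495 in wild type tumours. That separation rested on Pdgfra, the brightest of them. In a sum taken without it after the data were seen, knockout tumours had 4999 to 5851 and wild type tumours 4862 to 7952. The median deviations of the 12 also overlapped, with -0.06, -0.25 and -0.06 in knockout replicates 1 to 3 against 0.40, 0.24 and -0.20 in wild type replicates 1 to 3. The lower values of Srebf1, Fasn, Me1, Abca1 and Abcg1 stand beside both lists, and the part of these cells in them was not tested. Within the wild type group, these oligodendrocyte medians and those of the 16 sterol enzymes (0.07, -0.06 and -0.22) were both highest in replicate 1 and lowest in replicate 3. Of 15 astrocyte and Bergmann glia markers 11 had positive changes, but their summed levels of 26995 to 28948 in knockout tumours lay within the 16971 to 30229 of wild type tumours. Wild type replicate 3 was the highest wild type array for these glial markers and the lowest for the sterol enzymes. The 10 markers of mature granule neurons had a median change of 0.68. Of these, 5 were higher and 0 lower with an unadjusted p under 0.05, where 7.24% and 6.51% of all genes qualified. Their summed levels were 5002 to 9832 in knockout and 5610 to 5859 in wild type tumours. The 10 Purkinje and inhibitory neuron markers had a median change of 0.45, 6 of them higher and 1 lower by the same measure. The lower one was Lhx1, with a change of -0.49 (SE 0.11) and groups that did not overlap. The summed levels of the 10 were 2425 to 4862 in knockout and 2241 to 3144 in wild type tumours. The 14 granule progenitor and tumour markers had a median change of -0.26. The groups did not overlap for 7 lower ones of these 14 (50%, against 9.43% of all genes) and 3 higher ones (21.4%, against 10.2%). Their summed levels were 31954 to 36307 in knockout and 34241 to 39096 in wild type tumours. In these 3 lists 0 markers passed the adjusted threshold in limma, and their part in the values of the lipid genes was not tested.

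Other genes of the same pathways, listed for comparison, had changes of both signs in near equal numbers. Of 25 further sterol genes 13 had positive and 12 negative changes (median 0.01), and of 32 further fatty acid genes 16 and 16 (median 0.00). In both lists 0 passed the threshold, while 3 higher and 2 lower sterol genes and 2 higher and 1 lower fatty acid genes had an unadjusted p under 0.05, beside the 7.24% higher and 6.51% lower of all genes. Idi1, whose feature carried a second symbol, was not analysed. Cyp46a1, the neuronal hydroxylase that clears cholesterol from the brain, had 7.92, 7.73 and 7.95 in knockout tumours and 7.72, 7.36 and 7.51 in wild type tumours (change 0.34, SE 0.12, limma adjusted p = 0.291). Cyp27a1, another sterol hydroxylase, had 6.47, 6.50 and 6.43 in knockout tumours and 6.70, 6.65 and 6.72 in wild type tumours (change -0.22, SE 0.08). Thrsp, a lipogenic protein, had 8.41, 8.16 and 8.58 in knockout tumours and 7.87, 8.12 and 7.98 in wild type tumours (change 0.39, SE 0.13). Acsl6, an acyl-CoA synthetase of the brain, had a change of 0.37 (SE 0.13). In all 4 genes the groups did not overlap, as in 10.2% (higher) and 9.43% (lower) of all genes. These 4 were taken as the 2 with the smallest p in each list. That choice favours separated groups, so their separation says nothing further about the lists.

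The 13 genes with separated groups kept their sign whichever array was left out. Srebf1 ranged from -0.85 to -0.61 and Nsdhl from 0.40 to 0.49. Ebp ranged from 0.21 to 0.47, Elovl5 from 0.19 to 0.41, Acss2 from 0.21 to 0.42 and Abca1 from -0.26 to -0.13. With all knockout above or below all wild type values at the outset, a sign kept on removal of 1 array is fixed by that choice of genes and shows only the size of the swing.

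**Figure D5:**
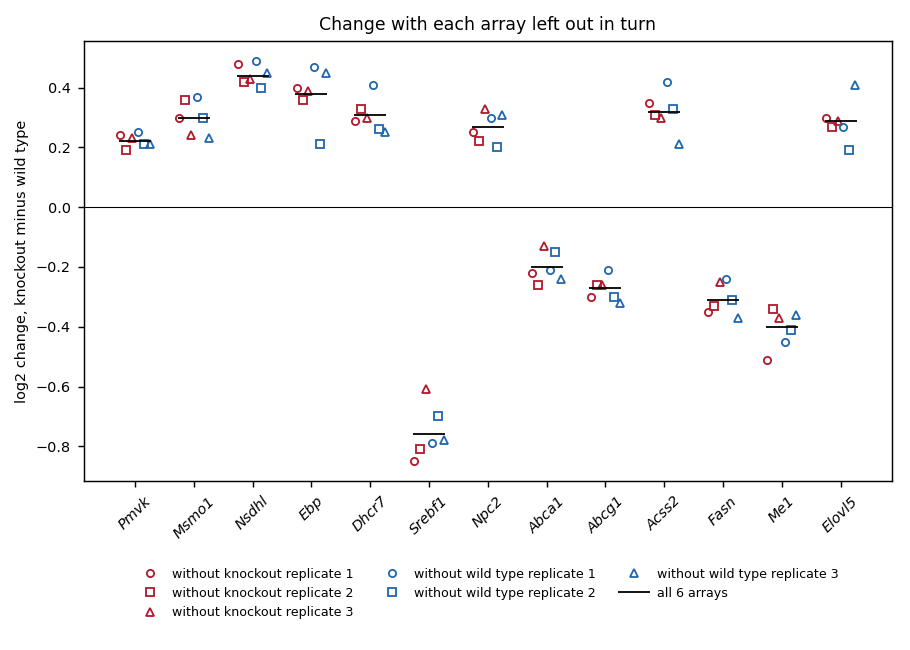
Log2 change (knockout minus wild type, y axis) of the 13 lipid genes with separated groups when each array is left out (red, a knockout array; blue, a wild type array), beside the value from all 6 arrays (black bar). Srebf1 moves most without knockout replicate 3, to -0.61, and Ebp most without wild type replicate 2, to 0.21.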

How the data were processed

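RNA from 6 tumours was hybridised to 1 array each. The files hold log2 expression per array feature, which the authors deposited after RMA summarisation; the oligo package is named in the submitters' processing notes, without its version. RMA equalises the arrays, which takes out any difference common to most genes, and compresses changes of dim genes. Precision rests on the small number of arrays, and there is no read depth. Of 41345 features 23521 had 1 symbol, 1814 several and 16010 none in the platform table. For 1082 genes with several features the one with the highest mean was used, with no filter on level, leaving 22180 genes.

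Groups and replicate numbers came from the sample titles. Every gene was fitted by limma's lmFit and eBayes (limma 3.58.1, R 4.3.3; two-sided, Benjamini-Hochberg over all genes, threshold 0.05), and the fit was tested on simulated data. Members, gene lists and markers were chosen with earlier results of these data known. Genes described in full were, by group, those past the threshold or with groups that do not overlap, and in the other lists the 2 with the smallest p. LXR targets, Scd1 and genes with small changes were picked after their values were seen. Each genotype was of a single sex, which left no way to adjust for it. Alternatives covered scaling, dim genes, the variance model, array weights, features per gene, a replicate block, sex chromosomes and each array left out.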

Additional observations from a re-analysis of the deposited data

How the results depend on the processing

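Under every alternative run, 0 of 38 lipid genes passed a limma adjusted p of 0.05. Srebf1 came closest, with a limma adjusted p of 0.0539 with a variance trend and 0.0661 without the dimmest 50% of genes, within a range of 0.0539 to 0.293, and Nsdhl reached 0.0665 without the dimmest 50%. Replicate numbers gave no sign of pairing the tumours. Deviations of same-numbered arrays from their group means correlated at -0.03, 0.05 and 0.10, and those of other pairs at -0.14 to 0.11. With 3 arrays per group such correlations cannot exclude pairing. With the replicate number as a block nonetheless, Srebf1 had an adjusted p of 0.137 and a change of -0.76, and the median of the sterol enzymes was 0.15. Over all genes, 46 passed with all arrays and 12 with the block, 107 with a variance trend, 68 without the dimmest 50% or with array weights, and 4 to 128 with 1 array left out.

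Leaving out 1 array at a time, genes with an unadjusted p under 0.05 numbered 4 to 12 of 38 instead of 12. Genes with separated groups numbered 14 to 21 instead of 13. Removing an array can only keep or raise that count, and the share of all genes is not given for these settings. The rise therefore says nothing about the lipid genes. The median change of the sterol enzymes ranged from 0.04 to 0.25 around 0.15, lowest without wild type replicate 3. That of fatty acid genes ranged from -0.06 to 0.07 around 0.00, and that of transport genes from -0.11 to 0.04 around 0.01. Without the dimmest 50% of genes the transport median was -0.12, over the 5 genes that stay. The cause was not tested beyond the fewer genes or arrays. No other median moved by more than the spread between arrays. Without knockout replicate 3, 4 genes of all passed, against 128 without knockout replicate 2. The 13 genes with separated groups kept their sign under each alternative that kept them (Nsdhl and Ebp drop out without the sex chromosomes). These genes were chosen for separated groups. Array weights, the block, the variance model or a left-out array could therefore not turn their sign, and keeping it is no sign of stability. Of the 16 sterol enzymes 6, all with overlapping groups, had negative changes without wild type replicate 3.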

Other observations

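Further lipid genes outside the 38 also had groups that did not overlap. In 5 of 25 further sterol genes (20%) all knockout values were higher, and in 3 (12%) all were lower. Of 32 further fatty acid genes the same held for 4 (12.5%) and 3 (9.38%), against 10.2% and 9.43% of all genes. Only some of them are named here, picked after their values were seen. Vldlr, a lipoprotein receptor and a receptor for reelin, had 8.82, 8.76 and 8.96 in knockout tumours and 8.69, 8.60 and 8.46 in wild type tumours (change 0.27, SE 0.10, limma adjusted p = 0.314). Lrp1, a large receptor that also takes up lipoproteins, was lower, with 10.10, 10.21 and 9.97 in knockout tumours and 10.66, 10.37 and 10.24 in wild type tumours (change -0.33, SE 0.13, adjusted p = 0.325). Erlin1, a sterol-binding protein of the endoplasmic reticulum, had a change of 0.27 (SE 0.11). Acacb, the mitochondrial relative of Acaca, had 6.20, 6.15 and 6.08 in knockout tumours and 6.39, 6.50 and 6.30 in wild type tumours (change -0.25, SE 0.09), and Lpin1, a phosphatidate phosphatase, had a change of -0.20 (SE 0.09). None passed the threshold.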
